A study of Mus musculus with 32 samples.

Results

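The late culture of mouse embryonic stem (ES) cell-derived cardiomyocytes was examined by setting day 26 against day 19 of differentiation. The arrays were chosen by their titles and time labels, which gave 12 of the 32 arrays of the series: for each day 2 Affymetrix arrays with VSN values, 2 Febit arrays with VSN values and 2 Affymetrix arrays with RMA values. VSN and RMA are methods of normalizing array signals to a log2 scale, and the Affymetrix VSN and RMA values come from the same hybridizations. Behind the 12 arrays stand 4 of the 8 RNA samples of the series, since both platforms received the same RNA. All 609 miRNAs of the Affymetrix tables and all 710 of the Febit table were analysed, and 608 of them are on both arrays.

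All cells came from ES-D3, a mouse ES line that had received a vector named alpha-MHC-Pac-IRES-EGFP, in which the cardiac α-MHC promoter drives puromycin resistance and a green fluorescent reporter. They were of 1 stably transfected clone, αPIG44, grown on mouse embryonic fibroblasts with LIF and neomycin before differentiation. Embryoid bodies were treated with puromycin to remove cells in which the α-MHC promoter is not active, and at day 12 the remaining cardiobodies were dissociated into Cor.At cardiomyocytes and seeded on Fibronectin. By the study's methods, day 26 cells had then spent 14 days on the dish and day 19 cells 7 days. In the deposited records, 11 of these 12 give in their culture text only 6 h on the dish, so the titles and time labels were followed. The duplicates a and b of each day are described by the study as biological replicates. Total RNA was measured in bulk, so fewer cells of a type and less RNA per cell cannot be told apart.

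Mature miRNAs are short RNAs that bind messenger RNAs mainly through their seed, bases 2 to 8, and lower the output of those messages. Members of a family share the seed and are expected to share many targets, while members of a cluster are cut from one transcript. In the heart, miR-1 and miR-133a are typical of muscle cells, miR-29 lowers collagen messages, and let-7 accumulates as stem cells leave the pluripotent state.

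The sequences of the miRNAs on which the comparison turned are given as annotated by RefSeq on GRCm38.p6, 5′ to 3′, with the seed in capitals, to show how little members of one family differ. All 19 miRNAs looked up were found. The let-7 family has the seed GAGGUAG, which 11 of 1679 mature miRNA names in the reference carry (0.655%).
let-7g: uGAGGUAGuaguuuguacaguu
let-7i: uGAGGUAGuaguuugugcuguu
let-7f: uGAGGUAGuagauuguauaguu
let-7a: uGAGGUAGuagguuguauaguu
let-7c: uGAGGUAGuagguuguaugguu
let-7e: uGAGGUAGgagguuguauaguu
miR-98: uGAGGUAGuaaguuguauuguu
Counted from the 5′ end of let-7a, let-7c differs by A19G, let-7e by U9G and let-7f by G12A alone, let-7g by G12U and U18C, and let-7i by 4 bases. None of these differences lies in the seed. The miR-29 family has the seed AGCACCA, carried by 3 of the 1679 names (0.179%).
miR-29a: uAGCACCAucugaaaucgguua
miR-29c: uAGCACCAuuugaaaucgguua
miR-29b: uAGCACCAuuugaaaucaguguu
Here miR-29c differs from miR-29a by C10U alone. The pair miR-199a-3p and miR-199b is shown because both have the same mature sequence in the reference, and miR-134 and miR-370 are shown because they fell.
miR-199a-3p: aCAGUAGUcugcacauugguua
miR-199b: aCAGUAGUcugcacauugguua
miR-134: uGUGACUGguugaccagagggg
miR-370: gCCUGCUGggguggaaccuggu
Whether a probe for one let-7 or miR-29 member also caught another was not tested.

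Few miRNAs passed the test between the 2 days. After Benjamini-Hochberg adjustment over all miRNAs, limma called 0 of 609 miRNAs on the Affymetrix VSN values (0%), 0 of 710 on the Febit VSN values (0%) and 4 of 609 on the Affymetrix RMA values (0.657%), at an adjusted p under 0.05. The lowest adjusted p by limma was 0.076 for Affymetrix VSN and 0.73 for Febit VSN. With 2 arrays against 2, an exact two-sided permutation test of a single miRNA cannot go below p = 0.333, so the calls rest on the spread shared across miRNAs. At an unadjusted p under 0.05, 68 miRNAs were higher (11.2%) and 12 lower (1.97%) at day 26 on Affymetrix VSN. The counts were 22 higher (3.10%) and 5 lower (0.704%) on Febit VSN, and 31 higher (5.09%) and 35 lower (5.75%) on Affymetrix RMA.

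The day 26 duplicates lay closer together than any pair of arrays of different days on the Affymetrix data but not on Febit VSN, and the day 19 duplicates lay within or below the range between days. On Affymetrix VSN the distance over all 609 miRNAs was 18.5 between the day 26 arrays and 22.2 between the day 19 arrays, against 22.2 to 25.5 between arrays of different days. On Febit VSN it was 27 between the day 26 arrays and 20.0 between the day 19 arrays, against 21.4 to 32.7 between days. On RMA it was 8.64 between the day 26 arrays and 12.1 between the day 19 arrays, against 11.1 to 13.9 between days. The Febit arrays also differed in their raw data. Day 19 a and b had 267 and 151 missing features, against 42 and 41 on day 26 a and b, and what this changed was not tested. One Febit array stood apart in its raw signal: day 26 b had a median raw intensity of 228, against 928 to 992 on the other 3 arrays of days 26 and 19. Leaving out that array left 5 higher and 3 lower miRNAs on Febit VSN at an unadjusted p under 0.05.

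The balance of higher and lower miRNAs depended on the scaling. The median log2 fold change over all miRNAs was 0.17 on Affymetrix VSN, 0.08 on Febit VSN and −0.01 on Affymetrix RMA. In the same order, 61.2%, 54.2% and 49.3% of all miRNAs had a positive log2 fold change. The median level of the Affymetrix VSN arrays was 2.60 and 2.58 at day 26, against 2.43 and 2.40 at day 19, so the day 26 arrays as a whole lay higher on this scale, and changes on it are read relative to that shift. With each Affymetrix VSN array centred on its median, the split at an unadjusted p under 0.05 was 49 higher and 24 lower, and with quantile normalization it was 27 higher and 26 lower. On Febit VSN the split was 29 higher and 1 lower after centring, 10 and 6 after quantile normalization, and 13 and 13 on quantile-normalized raw intensities. The brightest 203 miRNAs of the Affymetrix array had a median log2 fold change of 0.37 on VSN but −0.15 on RMA values, and the brightest 236 on Febit VSN had 0.38. Day 26 and day 19 arrays did not overlap for 184 higher (30.2%) and 72 lower miRNAs (11.8%) on Affymetrix VSN, 164 higher (23.1%) and 135 lower (19.0%) on Febit VSN, and 122 higher (20.0%) and 124 lower (20.4%) on RMA. Between VSN and RMA values of the same Affymetrix arrays, 508 of 609 miRNAs had the same sign.

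**Figure D1:**
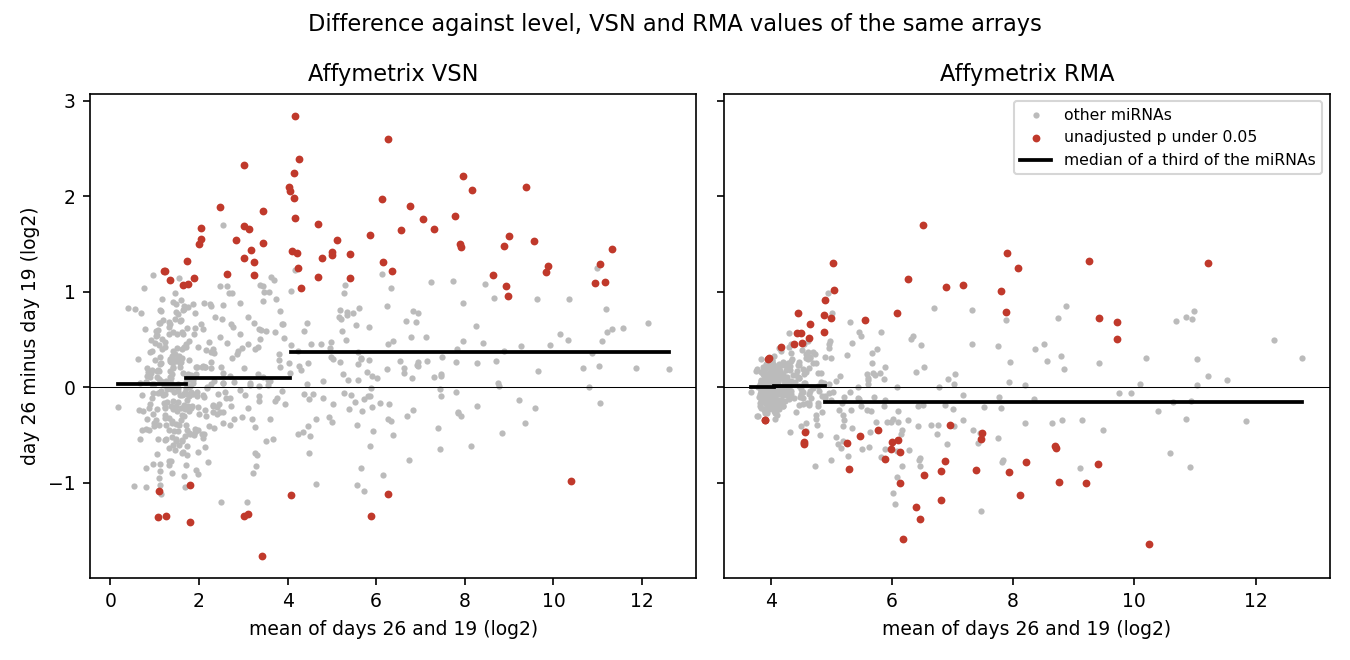
Log2 fold change of day 26 over day 19 (vertical axis) against the mean level of each miRNA over both days (horizontal axis, log2), for Affymetrix VSN and RMA values, with 1 point per miRNA, red at an unadjusted p under 0.05, and black bars at the medians of dim, middle and bright miRNAs. The median of the brightest 203 is 0.37 on VSN and −0.15 on RMA.

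The 4 miRNAs that passed the test on RMA values were let-7g and miR-29a, which rose, and miR-134 and miR-370, which fell. let-7g (Mirlet7g, chr9:106178846-106178867, plus strand) measured 8.69 and 8.70 on RMA at day 26, against 7.46 and 7.44 at day 19. The duplicates almost coincided, and the log2 fold change was 1.25 ± 0.13 (SE, n = 2 arrays each; adjusted p = 0.031, limma), a fold of 2.38. miR-29a (Mir29a, chr6:31062673-31062694, minus strand) measured 7.54 and 7.18 at day 26, against 5.60 and 5.73 at day 19, a log2 fold change of 1.70 ± 0.20 (adjusted p = 0.036, limma) and a fold of 3.24. miR-134 and miR-370 are both cut from the imprinted Dlk1-Dio3 region on mouse chromosome 12. miR-134 (chr12:109734145-109734166, plus strand) measured 5.99 and 5.57 at day 26, against 6.97 and 7.07 at day 19, a log2 fold change of −1.25 ± 0.17 (adjusted p = 0.042, limma). miR-370 (chr12:109618305-109618326, plus strand) measured 5.48 and 5.29 at day 26, against 6.99 and 6.96 at day 19, a log2 fold change of −1.59 ± 0.22 (adjusted p = 0.042, limma). For all 4 the day 26 arrays lay wholly on one side of the day 19 arrays. The calls were near the limit of the test: leaving out any 1 array of day 26 or day 19 left 0 calls on RMA, with adjusted p-values between 0.023 and 0.23 for let-7g over all 15 alternatives tried, while the log2 fold change of let-7g stayed between 1.21 and 1.28.

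The let-7 family was higher at day 26 on both platforms. All 9 members had a positive log2 fold change on Affymetrix VSN (61.2% of all miRNAs), with a median of 1.54 against 0.17 for all miRNAs. Of them, 8 were at an unadjusted p under 0.05 (11.2% of all miRNAs, 44 of the brightest 203). On Febit VSN all 9 were positive (54.2% of all miRNAs), with a median of 2.11 against 0.08. There, 6 were at an unadjusted p under 0.05 (3.10% of all miRNAs). On RMA, 8 were higher (49.3% of all miRNAs) and 1 lower, with a median of 0.85 against −0.01. The family median was positive in all 16 alternatives on Affymetrix VSN (0.85 to 1.67), all 17 on Febit VSN (0.44 to 2.66) and all 15 on RMA (0.59 to 1.24). After VSN none of the 9 passed the adjusted test.

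Among the members, let-7g measured 9.21 and 9.19 on Affymetrix VSN at day 26, against 7.07 and 7.19 at day 19 (log2 fold change 2.07 ± 0.45, fold 4.19, adjusted p = 0.087 by limma). Its Febit VSN values were 8.36 and 8.99 at day 26, against 7.14 and 6.92 at day 19 (log2 fold change 1.64 ± 0.72). The groups did not overlap on either platform. Before normalization, however, the raw Febit intensity of let-7g was 1332 and 556 at day 26, against 992 and 940 at day 19, so the higher value of day 26 b was seen only after the dim array had been scaled. Without that array the Febit VSN median of the family was 1.65. let-7i measured 10.45 and 10.40 on Affymetrix VSN at day 26, against 7.60 and 9.06 at day 19, and 8.12 and 9.20 on Febit VSN at day 26, against 5.76 and 5.78 at day 19. The day 19 duplicates of let-7i were wide apart on Affymetrix and close on Febit. let-7f measured 9.38 and 8.75 on Affymetrix VSN at day 26, against 6.61 and 7.10 at day 19 (2.21 ± 0.56), with 2.11 ± 1.0 on Febit VSN. let-7a, one of the brightest members, measured 12.05 and 12.04 at day 26, against 10.38 and 10.80 at day 19 (1.45 ± 0.44). On Febit VSN let-7a measured 9.58 and 11.06 at day 26, against 8.52 and 7.30 at day 19 (2.41 ± 0.80), so its duplicates were less tight there.

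The other members ranged widely between platforms. let-7c differed by 1.09 on Affymetrix VSN and by 3.92 ± 1.02 on Febit VSN, where 9.14 and 10.11 at day 26 stood against 7.03 and 4.37 at day 19. The Febit difference of let-7c thus leaned on the low value of day 19 b. let-7b differed by 1.58 on Affymetrix VSN and 1.93 on Febit VSN, and let-7d by 1.10 and 2.56. let-7e, which departs from let-7a at 1 base, was nearly level on Affymetrix VSN, with 11.93 and 11.98 at day 26 against 11.66 and 11.84 at day 19 (0.21 ± 0.45), and was the member that was lower on RMA (−0.36). It differed by 1.58 on Febit VSN. miR-98 measured 3.97 and 3.23 on Affymetrix VSN at day 26, against 1.93 and 2.19 at day 19, whereas on Febit VSN its day 26 values of 6.72 and 5.64 overlapped the day 19 values of 5.90 and 6.43.

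The rise of let-7g and miR-29a on RMA was set beside their earlier time points on VSN. The mean VSN level of let-7g was 1.84 at day 0 and 5.82 at day 12 on Affymetrix, below both later days. miR-29a averaged 1.98 at day 0 and 5.43 at day 12, so its day 12 level lay above both day 19 values and below both day 26 values.

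**Figure D2:**
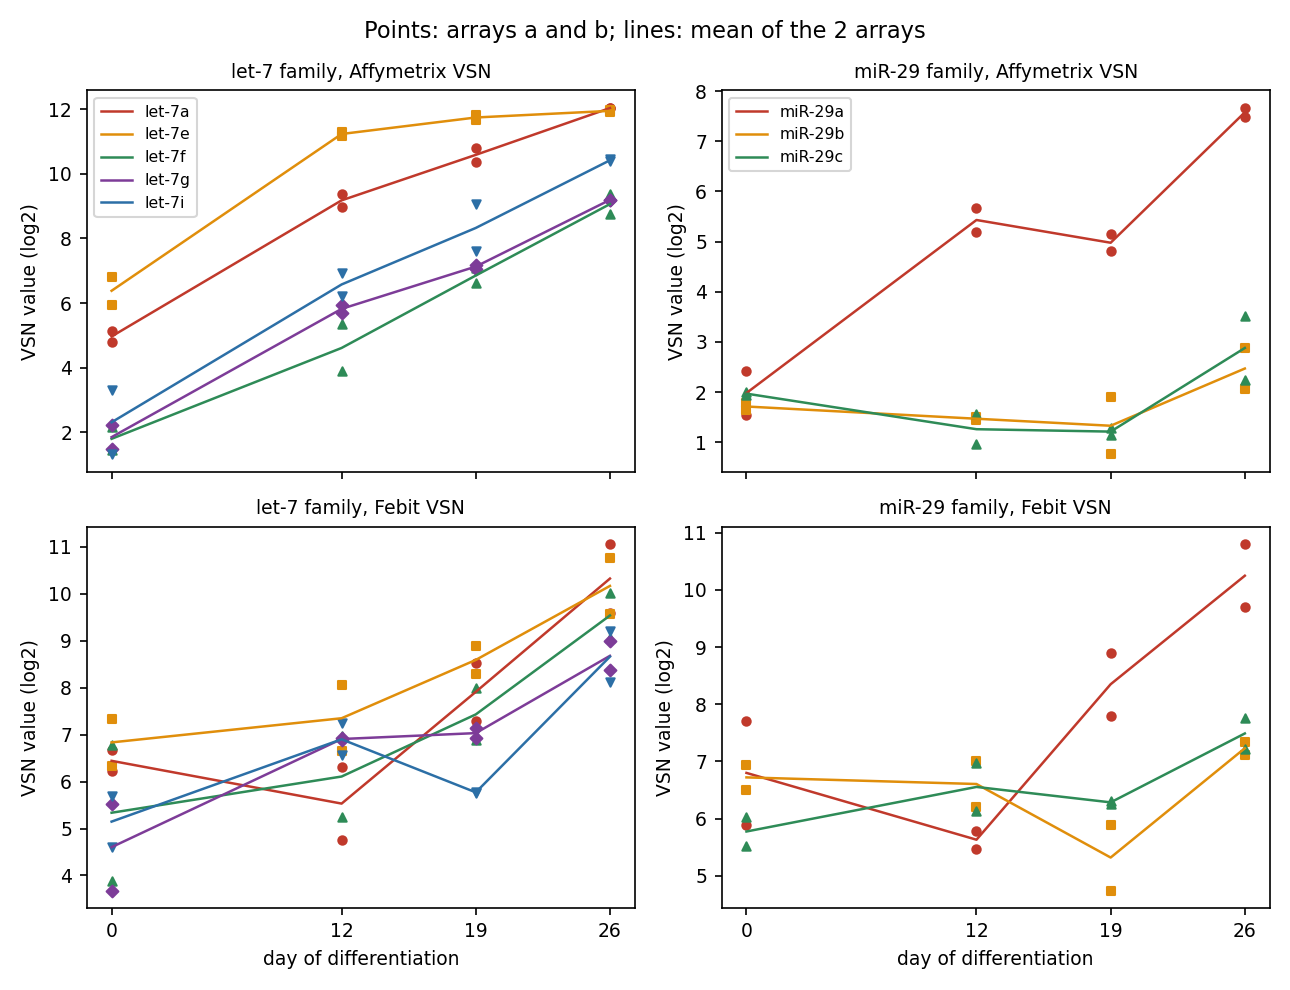
Affymetrix VSN and Febit VSN values (vertical axis, log2) of let-7 members and the miR-29 family on each array at days 0, 12, 19 and 26 (horizontal axis), with points for the arrays and lines through the daily means. On Affymetrix, let-7g averaged 1.84 at day 0 and 5.82 at day 12, and measured 7.07 and 7.19 at day 19 and 9.21 and 9.19 at day 26.

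The miR-29 family, which lowers messages of collagens and other matrix proteins, was higher at day 26 in all 3 members and all 3 data sets, with medians of 1.67 on Affymetrix VSN, 1.90 on Febit VSN and 0.43 on RMA. At an unadjusted p under 0.05 were 3, 2 and 2 of its members, in the same order of data sets, beside 11.2%, 3.10% and 5.09% of all miRNAs. miR-29a measured 7.67 and 7.49 on Affymetrix VSN at day 26, against 4.80 and 5.15 at day 19, a log2 fold change of 2.60 ± 0.47, a fold of 6.06 and an adjusted p of 0.076 (limma). On Febit VSN it measured 9.69 and 10.80 at day 26, against 8.90 and 7.80 at day 19 (1.90 ± 0.78). The groups did not overlap on either platform, but the Febit duplicates of each day lay about 1 apart on the log2 scale. miR-29b, the dimmest member on Affymetrix, measured 2.89 and 2.05 at day 26, against 1.90 and 0.76 at day 19, and on Febit VSN 7.34 and 7.12 at day 26, against 5.90 and 4.74 at day 19. miR-29c measured 3.51 and 2.25 on Affymetrix VSN at day 26, against 1.15 and 1.28 at day 19, with a log2 fold change of 1.2 on Febit VSN. The Affymetrix VSN values of miR-29b and miR-29c at day 19 lay below the array medians of 2.43 and 2.40.

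The miR-30 family, abundant in heart muscle, was higher at day 26 in all 6 members on all 3 data sets, with medians of 1.37 on Affymetrix VSN, 1.02 on Febit VSN and 0.69 on RMA. At an unadjusted p under 0.05 were 5, 1 and 3 members in that order, where 11.2%, 3.10% and 5.09% of all miRNAs were higher at that level. miR-30a measured 8.99 and 8.30 on Affymetrix VSN at day 26, against 6.56 and 7.79 at day 19 (1.47 ± 0.52), and 9.50 and 10.01 on Febit VSN at day 26, against 8.35 and 8.0 at day 19 (1.58 ± 0.64). Its day 19 duplicates were wide apart on Affymetrix, yet the groups did not overlap. For miR-30b the log2 fold change came to 1.8 (Affymetrix VSN) and 0.99 (Febit VSN), and the same pair of values was 1.27 and 1.03 for miR-30c, 1.06 and 1.0 for miR-30d, and 1.54 and 1.38 for miR-30e. The remaining member, miR-384-5p, had the smallest differences.

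The clusters of miR-23, miR-27 and miR-24 were higher in all 5 members on all 3 data sets, with medians of 0.82 on Affymetrix VSN, 1.37 on Febit VSN and 0.50 on RMA. Of all miRNAs, 61.2%, 54.2% and 49.3% were higher, in the same order. The unadjusted p was under 0.05 for 2, 0 and 2 members, beside 11.2%, 3.10% and 5.09% of all miRNAs. miR-27b measured 10.33 and 10.32 on Affymetrix VSN at day 26, against 8.78 and 8.80 at day 19 (1.54 ± 0.48), among the tightest duplicates of the comparison. On Febit VSN it measured 11.63 and 12.73 at day 26, against 11.29 and 9.93 at day 19 (1.56 ± 0.72). miR-27a differed by 1.5 on Affymetrix VSN and 1.32 on Febit VSN, miR-23a by 0.82 and 1.16, and miR-23b by 0.63 and 1.40. miR-24 measured 12.24 and 12.73 on Affymetrix VSN at day 26, against 11.47 and 12.13 at day 19, a difference of 0.68 that was about as large as the distance between the day 19 duplicates. The medians of these clusters and of the miR-29 and miR-30 families were positive in all alternatives tried, down to 0.16 on RMA for the clusters, and on Febit VSN to 0.20 for miR-29 and 0.17 for miR-30. Without the dim Febit array day 26 b, the Febit VSN medians were 1.34 for miR-29 and 0.86 for miR-30. Single arrays moved some medians further. The miR-29 median was 1.04 on Affymetrix VSN and 0.22 on RMA without day 26 a. The miR-30 median on Febit VSN was 0.49 without day 19 b and 1.65 without day 19 a, and on RMA it was 0.38 without day 19 a and 0.41 without day 26 a. The median of the clusters on Febit VSN was 0.88 without day 19 b.

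At an unadjusted p under 0.05 on both platforms in the main fits were 10 miRNAs, and all 10 were higher at day 26. Over all miRNAs, 11.2% on Affymetrix VSN and 3.10% on Febit VSN were higher at that level. With quantile normalization the Febit count fell from 22 to 10. Over the alternatives the log2 fold change ran from 0.25 to 1.71 for miR-29b and 0.58 to 1.21 for let-7c on Affymetrix VSN. On Febit VSN that of let-7g ran from 0.27 to 1.96. The 10 were let-7a, let-7b, let-7c, let-7d, let-7g and let-7i, miR-29a, miR-29b, miR-30a and miR-199a-3p. Over the 608 common miRNAs, the sign was the same on both platforms for 334 (54.9%), and Pearson's r of the log2 fold changes was 0.20 across miRNAs, which are not independent replicates. Of 67 common miRNAs that were higher on Affymetrix VSN at an unadjusted p under 0.05, 49 were also higher on Febit VSN, and of the 12 lower ones, 6 were lower there. Since both platforms measured the same 4 RNA samples, this compares measurements and not cultures.

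**Figure D3:**
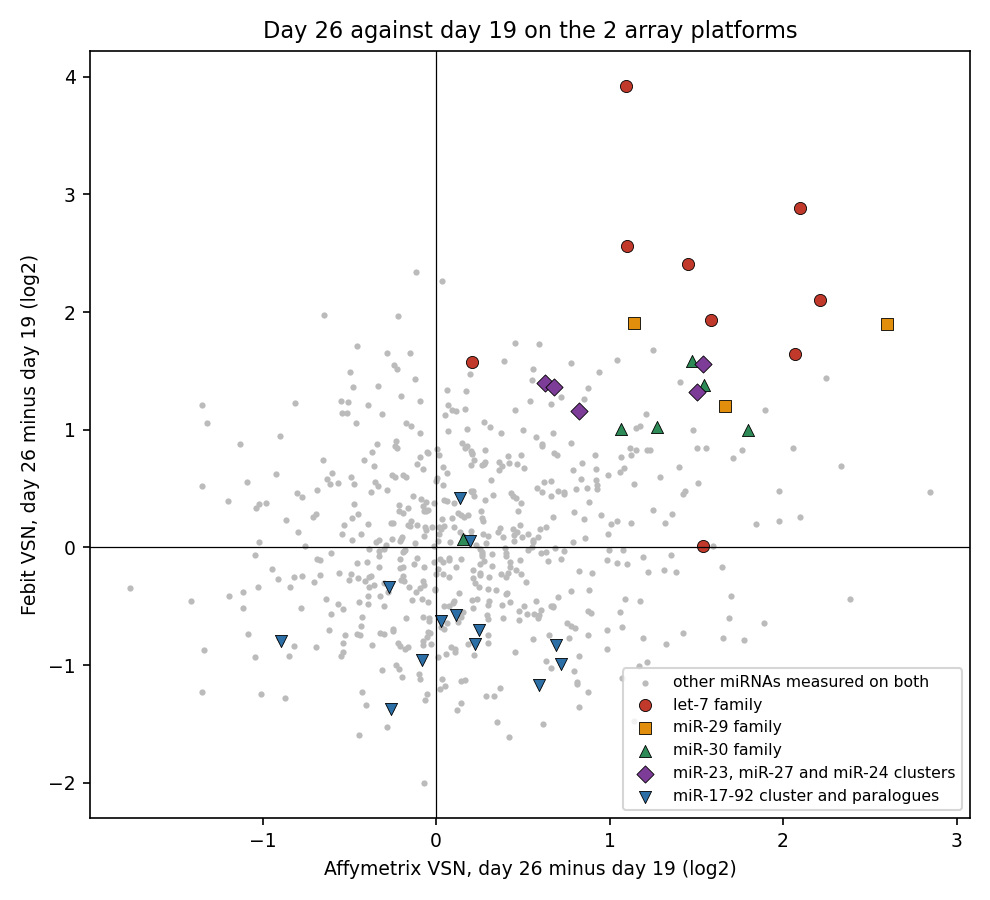
Log2 fold change of day 26 over day 19 on Febit VSN (vertical axis) against that on Affymetrix VSN (horizontal axis) for the 608 miRNAs on both arrays, with the named families coloured. Most miRNAs form a cloud around 0, with the same sign in 54.9%, and all 9 let-7 members lie above 0 on both axes.

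miR-21, miR-31, miR-221 and miR-222 are found in many cell types, and miR-21 is abundant in cardiac fibroblasts. All 4 were higher on Affymetrix VSN (median 1.52) and RMA (0.70), and 3 of 4 on Febit VSN (0.77, but 0.41 without day 19 b). The unadjusted p was under 0.05 for 3 on Affymetrix VSN, 1 on RMA and 0 on Febit VSN. The shares over all miRNAs were 11.2%, 5.09% and 3.10%. The RMA median was 0.43 without day 19 a and 1.08 without day 19 b. miR-21 measured 8.24 and 7.18 on Affymetrix VSN at day 26, against 5.59 and 6.04 at day 19 (1.90 ± 0.51), and 10.95 and 11.17 on Febit VSN at day 26, against 10.04 and 9.73 at day 19 (1.17 ± 0.64). The groups did not overlap on either platform. miR-221 was the member in which the platforms differed, with 1.65 on Affymetrix VSN and −0.16 on Febit VSN, while miR-222, of the same seed, had 1.40 and 0.69 and miR-31 had 1.12 and 0.85.

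A list of marker miRNAs of fibroblasts and other mesenchymal cells was higher on the Affymetrix data as well. The brighter miR-143 and miR-145, typical of smooth muscle and mesenchymal cells, were not in that list. Their medians were 0.54 on Affymetrix VSN, 0.07 on Febit VSN and −0.01 on RMA. Of the list of 5 (miR-199a-3p, miR-199a-5p, miR-199b, miR-214 and miR-152), all were higher on Affymetrix VSN, with a median of 1.89 against 0.17 for all miRNAs. Of them, 3 were at an unadjusted p under 0.05 (11.2% of all miRNAs), though miR-199a-3p and miR-199b in the list have the same mature sequence. At that level stood 1 member on Febit VSN (3.10% of all miRNAs) and 1 on RMA (5.09%). On Febit VSN 4 were higher (median 0.67), and on RMA all 5 (0.57). Their summed level, in linear units of the VSN scale, was 678 and 619 at day 26, against 270 and 280 at day 19 on Affymetrix, and 2156 and 2668 at day 26, against 2353 and 1018 at day 19 on Febit, where the groups overlapped. The sum over all miRNAs was higher too, with 97140 and 107260 at day 26 against 67000 and 74037 at day 19 on Affymetrix. On Febit that sum was 338350 and 496970 at day 26, against 298080 and 260000 at day 19. miR-199b measured 6.25 and 4.93 on Affymetrix VSN at day 26, against 2.73 and 2.77 at day 19 (2.85 ± 0.57, adjusted p = 0.087 by limma), but 7.41 and 6.41 on Febit VSN at day 26, against 6.27 and 6.61 at day 19, where the groups overlapped. Its sequence twin miR-199a-3p measured 5.83 and 4.71 on Affymetrix VSN at day 26, against 2.76 and 3.29 at day 19 (2.25 ± 0.64). On Febit VSN miR-199a-3p measured 5.46 and 5.86 at day 26, against 3.69 and 4.74 at day 19 (1.44 ± 0.63), so 2 names with one annotated sequence did not give one difference on that array. miR-199a-5p, the other arm, measured 3.98 and 2.87 on Affymetrix VSN at day 26, against 1.64 and 1.44 at day 19, with −0.65 on Febit VSN. miR-152 measured 8.97 and 9.05 on Affymetrix VSN at day 26, against 7.95 and 7.90 at day 19, and miR-214 differed by 1.23 on Affymetrix VSN and 0.83 on Febit VSN. What such cells contributed to the differences of miR-21, miR-29a and let-7 was not tested.

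The miRNAs of striated muscle, by which the label of cardiomyocytes was checked, differed in level, with miR-1 and miR-133a bright on both days and miR-499 and miR-208b near the array medians on Affymetrix VSN at day 19. miR-1 measured 11.53 and 11.88 on Affymetrix VSN at day 26, against 10.83 and 9.99 at day 19, far above its mean of 1.97 at day 0. On Febit VSN it measured 11.56 and 12.10 at day 26, against 10.84 and 11.61 at day 19, where the groups overlapped. Of the 8 members of the list, 6 were higher on each data set, with medians of 0.92 on Affymetrix VSN, 0.42 on Febit VSN and 0.27 on RMA. The Febit median was negative with quantile normalization (−0.18) and on raw intensities (−0.11), and 0.21 without day 26 a. Leaving out day 19 b alone gave medians of 0.36 on Affymetrix VSN and −0.005 on RMA. miR-133a, made from the same transcripts as miR-1, measured 10.89 and 10.75 on Affymetrix VSN at day 26, against 10.45 and 9.35 at day 19, and 11.92 and 12.67 on Febit VSN at day 26, against 11.74 and 11.51 at day 19. The groups did not overlap for miR-133a on either platform, and miR-133b differed by 0.92 and 0.53.

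Other muscle miRNAs lie within myosin heavy chain genes. miR-499, in an intron of Myh7b, measured 4.04 and 3.76 on Affymetrix VSN at day 26, against 2.60 and 2.32 at day 19 (1.44 ± 0.46), and 8.51 and 8.70 on Febit VSN at day 26, against 8.15 and 8.11 at day 19. It was higher with no overlap on both platforms, though the Febit difference was 0.48. miR-208a, in an intron of Myh6, the α-MHC gene whose promoter drove the selection, differed by −0.07 on Affymetrix VSN and 0.36 on Febit VSN. miR-208b, in an intron of Myh7, measured 3.16 and 3.18 on Affymetrix VSN at day 26, against 2.11 and 2.25 at day 19, but 8.33 and 9.05 on Febit VSN at day 26, against 9.24 and 9.86 at day 19. Both platforms thus gave opposite signs for miR-208b with no overlap on either. miR-206, typical of skeletal muscle, differed by 0.45 on Affymetrix VSN and 0.11 on Febit VSN, and miR-486 by −0.05 and −1.24. miR-486 is also a blood cell marker, and it was counted here and not in the blood list below.

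**Figure D4:**
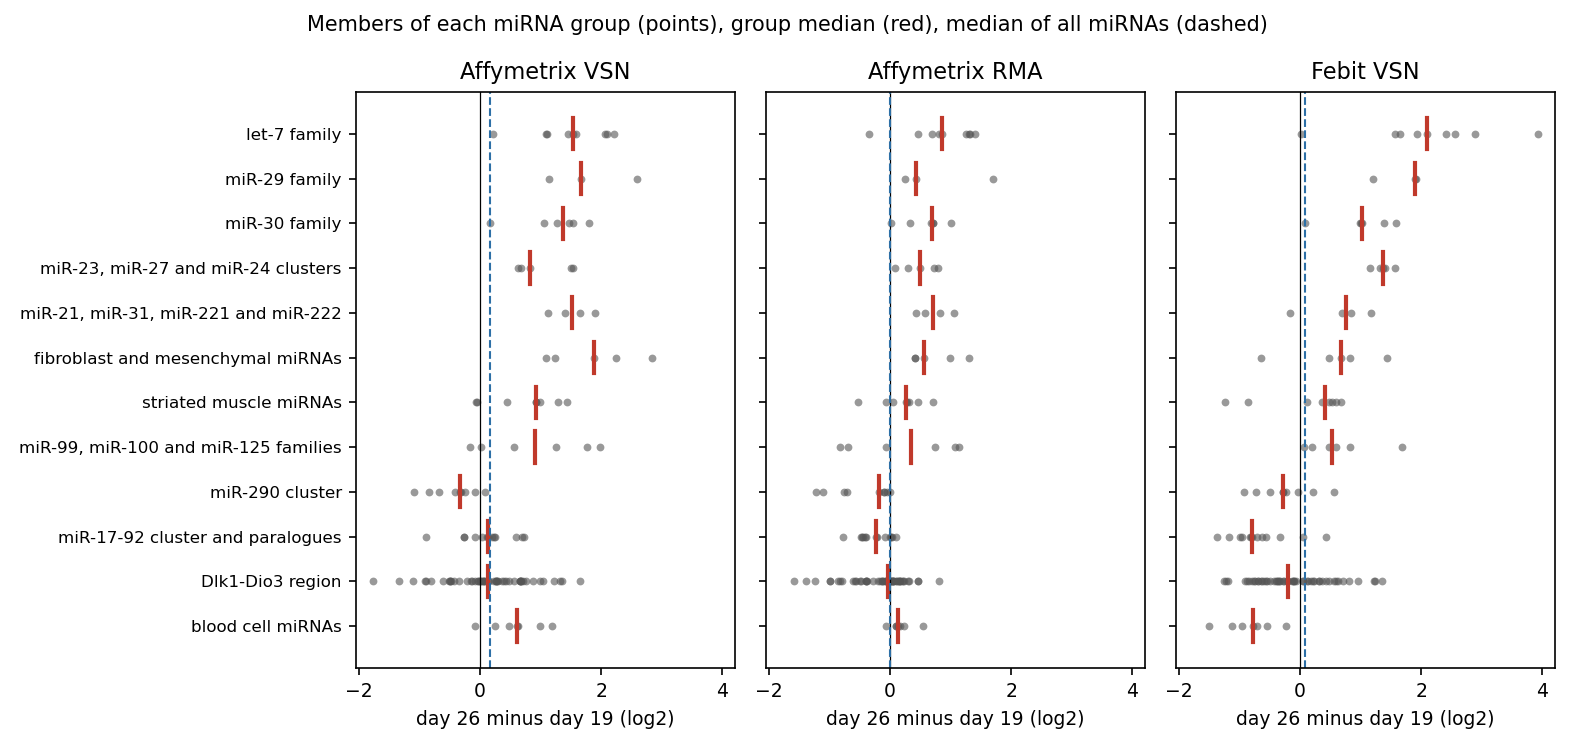
Log2 fold change of day 26 over day 19 (horizontal axis) of the members of each miRNA list (vertical axis), 1 panel per data set, with a point per member, a bar at the list's median and a line at the median of all miRNAs. The let-7 family has medians of 1.54 on Affymetrix VSN, 2.11 on Febit VSN and 0.85 on RMA, while the miR-17-92 list has medians of 0.14, −0.79 and −0.24.

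The cluster of miR-17 to miR-92 and its paralogues, tied to proliferation, was lower at day 26 in most members on Febit VSN and RMA but not on Affymetrix VSN. On Febit VSN, 11 of 13 were lower, 8 with no overlap between days (19.0% of all Febit miRNAs), with a median of −0.79 against 0.08 for all miRNAs, though none reached an unadjusted p under 0.05. On RMA, 9 were lower, 3 of them at an unadjusted p under 0.05 (5.75% of all miRNAs), with a median of −0.24 against −0.01. On Affymetrix VSN, 9 were higher and 4 lower with a median of 0.14, close to the median of all miRNAs of 0.17, but −0.04 after centring and −0.34 after quantile normalization. Leaving out day 19 b brought the Febit VSN median to −0.39. miR-19b measured 8.49 and 8.96 on Febit VSN at day 26, against 9.63 and 10.15 at day 19, a difference of −1.17 against 0.59 on Affymetrix VSN. miR-17 measured 8.40 and 8.74 on Febit VSN at day 26, against 8.90 and 9.38 at day 19, and 7.26 and 7.23 on RMA at day 26, against 7.49 and 7.94 at day 19. On Affymetrix VSN the day 26 values of miR-17, 7.43 and 7.60, lay between the day 19 values of 7.09 and 7.70. miR-92a, the brightest member on Affymetrix, was lower on all 3 data sets, with −0.27 on Affymetrix VSN, −0.34 on Febit VSN and −0.78 on RMA.

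Further groups are tied to ES cells and the cell cycle. The miR-290 cluster, typical of undifferentiated ES cells, was lower in 8 of 9 members on Affymetrix VSN, 7 of 9 on Febit VSN and 9 of 9 on RMA, with medians of −0.33, −0.28 and −0.18 and no member at an unadjusted p under 0.05. Its summed Affymetrix VSN level was 161 and 219 at day 26, against 141 and 581 at day 19, so the day 26 values lay between the day 19 duplicates. Over the alternatives the median of the cluster ran from −1.01 to 0.34 on Affymetrix VSN and, on Febit VSN, from −0.55 to 0.01. The miR-302 and miR-367 cluster, also of ES cells, had medians of 0.22 on Affymetrix VSN, 0.05 on Febit VSN and 0.03 on RMA. In the cluster of miR-322 and miR-503, miR-503 measured 8.75 and 8.66 on RMA at day 26, against 9.44 and 9.98 at day 19 (−1.0 ± 0.19). On Febit VSN miR-503 measured 10.58 and 9.75 at day 26, against 10.84 and 11.16 at day 19, and on Affymetrix VSN it differed by −0.37. The whole cluster was split, with medians of −0.06 on Affymetrix VSN, 0.37 on Febit VSN and −0.08 on RMA.

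The Dlk1-Dio3 region, an imprinted domain whose miRNAs are expressed from the maternal chromosome, held both miRNAs that were called lower at an adjusted p under 0.05 on RMA. Of its 53 members, 33 were higher and 20 lower on Affymetrix VSN (median 0.14), 21 higher and 32 lower on Febit VSN (−0.21), and 22 higher and 31 lower on RMA (−0.04). At an unadjusted p under 0.05 were 4 higher and 3 lower on Affymetrix VSN, none on Febit VSN, and 1 higher and 9 lower on RMA. Over all miRNAs the shares were 11.2% higher and 1.97% lower on Affymetrix VSN and 5.09% higher and 5.75% lower on RMA. The 4 higher ones were miR-494 (1.65), miR-411 (1.36), miR-539 (1.32) and miR-136 (1.22). The 3 lower ones were miR-673-5p, miR-370 and miR-665. The region thus held members on both sides, and its median lay near that of all miRNAs on the Affymetrix data. With 1 array left out, the Affymetrix VSN median came to −0.002 without day 19 b and 0.38 without day 26 b, and the Febit VSN median to −0.04 without day 26 b.

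Within the region, miR-370 measured 5.30 and 5.12 on Affymetrix VSN at day 26, against 6.56 and 6.54 at day 19 (−1.34 ± 0.46, adjusted p = 0.23 by limma), and 6.72 and 6.32 on Febit VSN at day 26, against 7.61 and 7.18 at day 19 (−0.87 ± 0.84). It was lower with no overlap on both platforms. miR-134 measured 5.98 and 5.42 on Affymetrix VSN at day 26, against 6.56 and 6.66 at day 19 (−0.91 ± 0.44). On Febit VSN the day 26 values of miR-134, 5.74 and 5.64, lay between the day 19 values of 5.31 and 6.61. miR-665 measured 6.09 and 5.33 on Affymetrix VSN at day 26, against 6.57 and 7.09 at day 19, with −0.38 on Febit VSN and −1.38 on RMA. miR-673-5p measured 2.53 and 2.56 on Affymetrix VSN at day 26, against 4.91 and 3.71 at day 19 (−1.76 ± 0.59), with −0.34 on Febit VSN. The brightest members did not pass the test on any data set. miR-127 differed by −0.21 on Affymetrix VSN and −0.10 on Febit VSN, but by −0.80 on RMA (adjusted p = 0.071, limma). miR-541 differed by −0.48, 0.37 and −0.99, and miR-379 by 0.04, 0.19 and −0.62.

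miR-210, which is induced by low oxygen, was lower on the Affymetrix array, while its Febit values overlapped. It measured 9.36 and 9.48 on RMA at day 26, against 11.22 and 10.89 at day 19 (−1.64 ± 0.29, adjusted p = 0.097 by limma), and 9.86 and 9.97 on Affymetrix VSN at day 26, against 10.94 and 10.84 at day 19 (−0.98 ± 0.44). On Febit VSN the day 26 values of 10.68 and 11.01 lay between the day 19 values of 11.02 and 9.91. The list of 9 cardiac stress and hypoxia miRNAs to which it belongs had medians of 0.74 on Affymetrix VSN, 0.38 on Febit VSN and 0.26 on RMA, with 7, 5 and 6 members higher.

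Other miRNAs were among the 10 with the largest increases on Affymetrix VSN whose sign was shared by Febit VSN and RMA. miR-24-1* measured 4.36 and 4.02 at day 26, against 1.60 and 2.12 at day 19 (2.33 ± 0.52, adjusted p = 0.090 by limma), with 0.69 on Febit VSN. Its sequence, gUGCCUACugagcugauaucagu, is the other arm of the miR-24 hairpin. miR-148a, whose sequence is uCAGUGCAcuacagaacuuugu, measured 5.12 and 5.07 on Affymetrix VSN at day 26, against 3.5 and 2.58 at day 19 (2.06 ± 0.53). On Febit VSN miR-148a measured 9.41 and 9.56 at day 26, against 8.99 and 8.30 at day 19, and the groups overlapped on neither platform. miR-350 measured 5.66 and 4.63 on Affymetrix VSN at day 26, against 3.66 and 2.67 at day 19 (1.98 ± 0.62), with 0.23 on Febit VSN. miR-720, a name now regarded as a fragment of a transfer RNA, measured 5.38 and 4.78 at day 26, against 3.25 and 2.71 at day 19 (2.1 ± 0.45, adjusted p = 0.087 by limma). On Febit VSN miR-720 measured 13.93 and 13.68 at day 26, against 13.74 and 13.35 at day 19, where the groups overlapped.

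Only 6 miRNAs met the same rule in the other direction, and 4 of them were dim at day 26. miR-325* measured 1.71 and 0.48 on Affymetrix VSN at day 26, against 2.62 and 2.40 at day 19. miR-135b measured 0.35 and 0.47 at day 26, against 1.5 and 2.02 at day 19, and miR-509-5p measured 0.48 and 0.65 at day 26, against 1.69 and 1.61 at day 19. The other one, miR-673-5p of the Dlk1-Dio3 region, measured 2.53 and 2.56 at day 26, against 4.91 and 3.71 at day 19. All day 26 values of these 4 lay below the array medians of 2.60 and 2.58, toward the range where the VSN scale becomes linear. Their RMA differences were −0.33 for miR-325*, −0.34 for miR-135b, −0.23 for miR-509-5p and −0.83 for miR-673-5p. Some rises started as low. At day 19, miR-29b, miR-29c, miR-24-1*, miR-98 and miR-199a-5p lay below the array medians of 2.43 and 2.40. For miR-29b the difference was 1.14 on Affymetrix VSN and 0.25 on RMA. What the low level did to these differences was not tested.

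**Figure D5:**
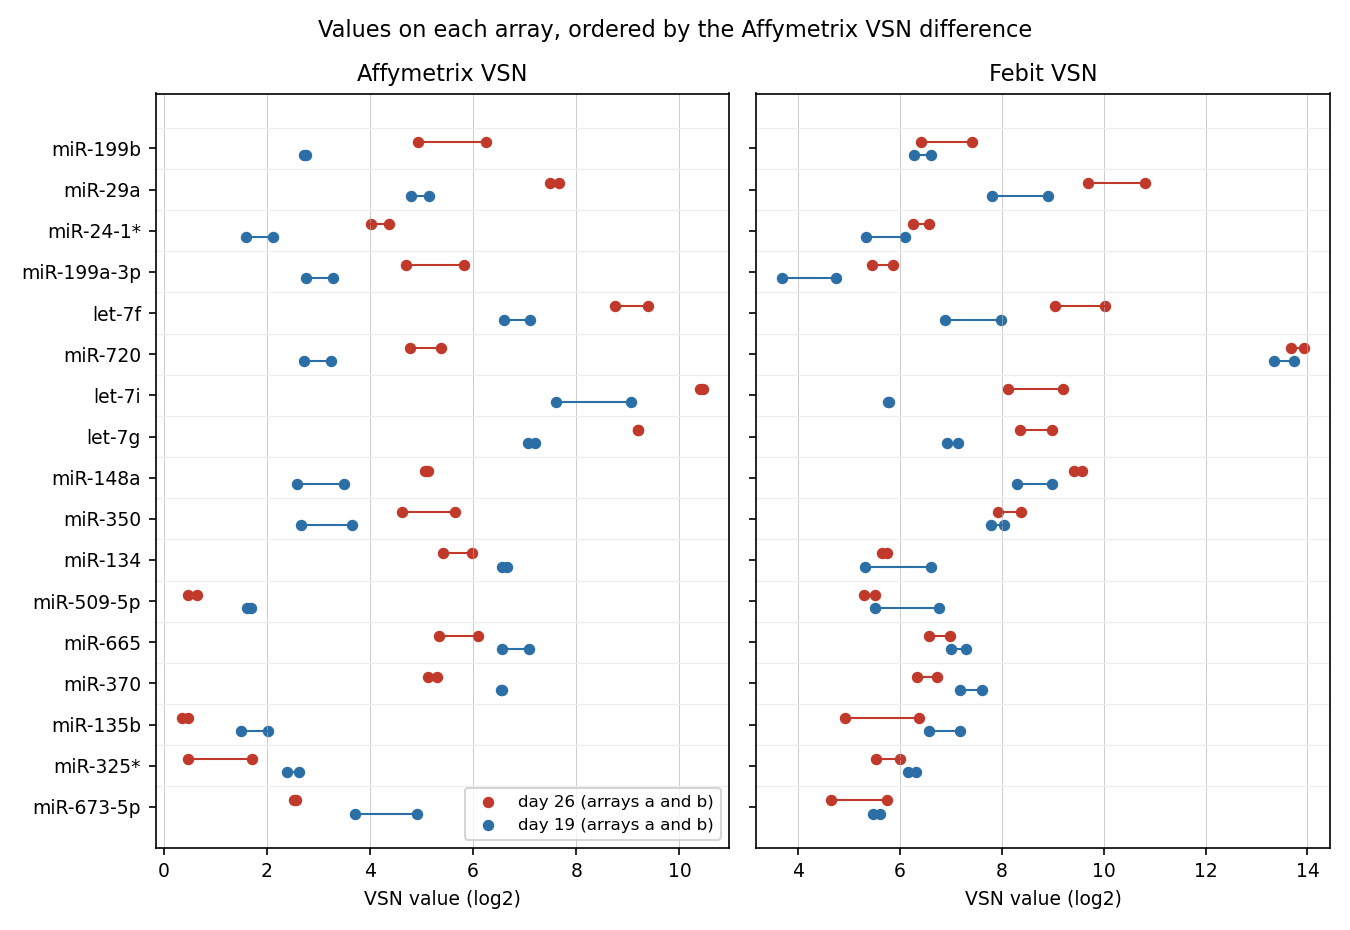
Affymetrix VSN and Febit VSN values (horizontal axis, log2) on each array of day 26 and day 19 for miRNAs described in the text (vertical axis), with day 26 above day 19. For let-7g the day 26 arrays lie at 9.21 and 9.19 on Affymetrix and the day 19 arrays at 7.07 and 7.19.

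On Febit VSN the largest increases at an unadjusted p under 0.05 were those of let-7c, let-7i, let-7d, let-7a and miR-92b. miR-92b measured 6.50 and 6.41 at day 26, against 4.36 and 3.87 at day 19 (2.34 ± 0.58), but differed by −0.11 on Affymetrix VSN. Of the 102 miRNAs on the Febit array alone, miR-2146 was the one at an unadjusted p under 0.05 (2.04). The largest decreases were those of miR-211, miR-200b, miR-136*, miR-150 and miR-653. miR-211 measured 4.57 and 5.05 on Febit VSN at day 26, against 6.80 and 6.82 at day 19 (−2.00 ± 0.68), and miR-653 measured 5.91 and 5.53 at day 26, against 7.21 and 7.18 at day 19. miR-150, made in mature lymphocytes, measured 4.33 and 4.80 at day 26, against 5.90 and 6.24 at day 19. The platforms differed in sign for 3 of these 5, miR-150, miR-653 and miR-200b, which had 0.62, 1.14 and 0.42 on Affymetrix VSN.

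Lists of marker miRNAs of blood, endothelium, nervous tissue, liver and gut, and epithelium were summed on Affymetrix VSN. No sum exceeded 193 on any array of days 26 and 19, against 2262 or more for the striated muscle list. The platforms gave medians of opposite sign for the blood, endothelial and epithelial lists, and of the same sign for the nervous tissue and the liver and gut lists. The 7 blood cell miRNAs were lower on Febit VSN in all 7 (median −0.77) and higher in 6 of 7 on Affymetrix VSN (0.62), with summed levels of 352 and 269 at day 26, against 507 and 618 at day 19 on Febit, and 193 and 90.6 at day 26, against 72.9 and 57.5 at day 19 on Affymetrix. The summed Affymetrix level of the endothelial miRNAs, both arms of miR-126, was 20.1 and 7.92 at day 26, against 10.3 and 2.97 at day 19, with medians of 0.94 for Affymetrix VSN and −0.07 for Febit VSN. Nervous tissue miRNAs had medians of −0.03 and −0.30, liver and gut miRNAs of 0.99 and 0.39, and epithelial miRNAs of 0.21 and −0.51. On Febit the summed level of the 7 nervous tissue miRNAs was 819 and 783 at day 26, against 1658 and 1521 at day 19. None of these 7 was at an unadjusted p under 0.05 there. In the liver and gut list miR-192 differed by 1.51, miR-194 by 1.15, miR-215 by 0.82 and miR-122, the one most typical of liver, by −0.15 on Affymetrix VSN. The part of other cells in these values was not tested.

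Of the remaining families, the miR-99, miR-100 and miR-125 miRNAs were higher in 5 of 6 members on Affymetrix VSN (median 0.91), 6 of 6 on Febit VSN (0.53, but −0.01 on raw intensities) and 3 of 6 on RMA (0.34). miR-99a measured 7.12 and 7.11 on Affymetrix VSN at day 26, against 5.71 and 4.57 at day 19 (1.97 ± 0.57), and differed by 0.48 on Febit VSN. miR-125b-5p measured 11.95 and 13.31 on Febit VSN at day 26, against 11.90 and 9.99 at day 19, with 1.25 on Affymetrix VSN, while miR-125a-5p was level there (0.01) and lower on RMA (−0.69). Both miR-26 members were higher on all 3 data sets, with medians of 0.79, 0.57 and 0.17. The miR-130, miR-301 and miR-148 families had medians of 1.08, 0.29 and 0.37, and the miR-15, miR-16 and miR-195 family 0.65, 0.01 and 0.16. The miR-181 family was lower in all 4 members on RMA (−0.56) and in 3 of 4 on Febit VSN (−0.24), with −0.09 on Affymetrix VSN, and ranges over the alternatives of −0.56 to 0.54 on Affymetrix VSN and −0.26 to 0.19 on Febit VSN. miR-143 and miR-145, typical of smooth muscle and mesenchymal cells, had medians of 0.54 on Affymetrix VSN, 0.07 on Febit VSN and −0.01 on RMA. In the miR-34 and miR-449 family, with medians of 0.04, −0.12 and 0.03, miR-34a differed by 1.17 on Affymetrix VSN, 1.03 on Febit VSN and 0.45 on RMA.

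The 39 miRNAs of the Sfmbt2 cluster families, repeats of very similar sequence in an intron of the imprinted gene Sfmbt2, were higher in 34 members on Febit VSN (median 0.58) but in 21 on Affymetrix VSN (0.05) and 16 on RMA (−0.11). The Febit median was 0.19 without the dim array day 26 b and 1.05 without day 26 a, and the Affymetrix VSN median lay between −0.29 and 0.38 over the alternatives. The duplicates of day 26 were far apart in miR-466f-3p, with 3.04 and 7.09 on Affymetrix VSN at day 26, against 6.30 and 5.87 at day 19. On Febit VSN miR-466f-3p measured 11.37 and 14.47 at day 26, against 12.97 and 12.78 at day 19, so culture a of day 26 was the lowest and culture b the highest of the 4 samples on both platforms. Imprinted miRNAs elsewhere had medians of −0.01 on Affymetrix VSN, 0.40 on Febit VSN and −0.09 on RMA. The Clcn5 locus miRNAs had medians of 0.07, −0.11 and −0.14, and the miRNAs in introns of metabolic genes 0.21, 0.68 and −0.20.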

How the data were processed

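The authors deposited log2 values of 609 Affymetrix miRNAs after RMA and after VSN (a log2-like scale that becomes linear close to background), and log2 values of 710 Febit miRNAs after VSN. The deposited Febit intensity table holds raw signals of 8 features per miRNA and was used only for checks and 1 alternative; Febit values without VSN were left out. The submitters' notes name RMA and affy without versions. Samples were grouped by titles and time labels.

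For each data set 1 mean per day was fitted with limma 3.58.1 (R 4.3.3) to the 8 arrays of days 0, 12, 19 and 26 (4 residual degrees of freedom) and day 26 minus day 19 was tested with empirical Bayes variances. The Benjamini-Hochberg adjustment of p-values ran over all miRNAs of the data set, with no filter, and a miRNA was called at an adjusted p under 0.05. The fit was also run on simulated data with planted changes and independent noise for each miRNA. Such data hold no scaling shift and no dim array, so they do not bear on these. Errors after ± are SE of log2 fold changes. With 2 arrays per day, the number of arrays limits the precision. Summed levels are sums of 2 to the power of the log2 values. They are not adjusted for the sum over all miRNAs, which was higher at day 26 on both platforms after VSN.

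Named were the miRNAs called in any data set; the 10 largest increases and decreases on Affymetrix VSN at an unadjusted p under 0.05 with no overlap and the same sign on Febit VSN and RMA; the 5 largest each way on Febit VSN; those with opposite signs at that level on both platforms (none); and the 3 brightest members of each list. Further members of lists were named after their values were seen. The comparison, members and lists were chosen with earlier results of these data known. Alternatives changed the scaling, the miRNAs tested, the arrays fitted, the replicate block, the variance trend and the authors' normalization.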

Additional observations from a re-analysis of the deposited data

How the results depend on the processing

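Of the counts of calls, Affymetrix VSN gave 2 (miR-199b and miR-29a) with the replicate block and 4 with RMA values, and 0 otherwise, 0 to 0 with 1 array left out; Febit VSN gave 0 throughout. RMA gave 5 calls after centring (adding miR-127), 2 with quantile normalization, 0 with the filter on dim miRNAs, 0 on the 4 arrays alone, 0 with the replicate block, 0 with the intensity trend, and 0 to 2 with 1 array left out. The letters a and b were not taken as pairs: deviations of the 2 days correlated at 0.117 on Affymetrix and −0.148 on Febit, and the block crossed on Febit, added after seeing the data, gave 0 calls. The counts at an unadjusted p under 0.05 were added after seeing the data. Higher and lower on Affymetrix VSN they were 49 and 24 centred, 27 and 26 quantile normalized, 52 and 7 with the filter, and 31 and 35 on RMA values, and 38 to 72 and 6 to 26 with 1 array left out. On Febit VSN they were 29 and 1 centred, 10 and 6 quantile normalized, 11 and 2 filtered, 60 and 15 on the 4 arrays alone, 21 and 8 with the trend, 13 and 13 on raw intensities, and 5 to 37 and 0 to 12 with 1 array left out. On RMA they were 20 and 23 filtered, and 14 to 36 and 23 to 44 with 1 array left out. Counts without overlap, higher and lower, were 138 and 119 centred, 117 and 119 quantile normalized, 125 and 29 filtered and 122 and 124 on RMA values for Affymetrix VSN; 99 and 57 filtered and 114 and 87 among the miRNAs listed as detected, 205 and 97 centred, and 125 and 150 both quantile normalized and on raw intensities for Febit VSN, the last 2 with more lower than higher; and 65 and 79 filtered and 101 and 146 centred for RMA. The filter tests fewer miRNAs; the cause of the other shifts was not tested. Of 3308 log2 fold changes of named miRNAs under alternatives, 2868 kept their sign and side of the threshold. A further 174 did not keep their sign, with no unadjusted p under 0.05 in either fit. In 3 the sign reversed with an unadjusted p under 0.05 in at least 1 of the fits. These were, on RMA values, miR-17 (−0.47) and miR-379 (−0.62) against Affymetrix VSN, and, on raw intensities, miR-16 (−0.70) against Febit VSN. The rest kept their sign but crossed the threshold. Of 1390 list medians, 1166 kept their sign and moved within the replicate spread, 222 moved further or did not keep their sign, and 2 reversed. Both reversals were of miR-143 and miR-145 on Affymetrix VSN, to −0.28 with quantile normalization and −0.012 on RMA values. Background correction of the raw Febit intensities was not run, since the table used holds no background column.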
